A study of Homo sapiens with 18 samples.

Results

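KLF12 and 7 other genes of the Krüppel-like factor (KLF) family were examined for peaks of the leukaemia fusion protein AML1-ETO: KLF2, KLF3, KLF4, KLF6, KLF7, KLF10, KLF12 and KLF13. These are 8 of 19974 protein-coding genes on chromosomes 1 to 22 and X. A peak was assigned to a gene when at least 1 bp of it overlapped the body of the gene or the 10 kb beyond either end, and KLF12 was included because it holds one of the widest control-unique peaks. The peak lists themselves thus chose the genes, and the numbers and widths of peaks are given as a description with no test. Peaks of the 4 single-antibody lists that overlapped each other were joined into regions, and 22 of 35622 regions lay at the 8 genes.

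The cells were Kasumi-1, an established human line of t(8;21) acute myeloid leukaemia, in which AML1-ETO carried a Flag tag. All 6 groups had this genotype: control cells or cells with miR-130a knock-down (KD), each profiled by CUT&RUN with anti-ETO, anti-Flag or mouse IgG in 3 libraries per group. Cells of both conditions were transduced, sorted as viable GFP+ cells after 3 days and used at 200000 cells per condition, and what the control cells received is not given in the sources used here. Planned depth was 40 M reads per library. CUT&RUN cuts and sequences the DNA around an antibody's target in permeabilised cells. The values were positions of peaks, with 1 list per antibody and condition, so no spread between libraries and no depth of a single peak could be given. The lists held 14264 peaks for control anti-ETO, 22594 for knockdown anti-ETO, 23162 for control anti-Flag and 25961 for knockdown anti-Flag. A dual-antibody peak is one called by anti-ETO and anti-Flag in the same condition, and the authors sorted these into shared (8731), control-unique (3059) and knockdown-unique (4617) peaks.

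KLF proteins are transcription factors whose zinc fingers bind GC-rich DNA and CACCC boxes, as do the related SP factors. KLF3, KLF8 and KLF12 bind the corepressor CtBP, a branch that includes KLF10 and KLF13 binds the corepressor Sin3A, and another that includes KLF1, KLF2, KLF4, KLF6 and KLF7 acts largely by activation. AML1-ETO keeps the DNA-binding Runt domain of RUNX1, which recognises TGTGGT-like sites, and recruits corepressors through ETO.

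Promoter sequences of 4 member starts are shown because peaks of different lists lay over 3 of them and 19 bp from the KLF7 start. They are the 250 bases before the annotated start, from RefSeq on GRCh38.p14, 5′ to 3′ on the gene's strand. Capitals mark matches, on either strand, to CACCC (or GGGTG), to the RUNX hexamer TGTGGT (or ACCACA) and to the ETS motif TTCCGG (or CCGGAA).
KLF12, chr13:74134405-74134654, minus strand, inside the control-unique peak: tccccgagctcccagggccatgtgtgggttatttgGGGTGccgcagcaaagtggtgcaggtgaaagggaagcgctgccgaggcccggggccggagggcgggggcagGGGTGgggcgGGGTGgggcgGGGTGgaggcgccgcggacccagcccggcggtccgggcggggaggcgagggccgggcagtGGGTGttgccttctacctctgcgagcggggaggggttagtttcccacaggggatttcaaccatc
KLF2, chr19:16324576-16324825, plus strand, inside a knockdown-unique peak: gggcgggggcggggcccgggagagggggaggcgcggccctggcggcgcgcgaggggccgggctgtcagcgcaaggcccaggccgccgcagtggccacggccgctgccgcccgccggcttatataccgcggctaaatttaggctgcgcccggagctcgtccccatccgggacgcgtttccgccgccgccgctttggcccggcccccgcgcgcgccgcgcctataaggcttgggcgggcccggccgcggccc
KLF13, chr15:31326585-31326834, plus strand, inside a shared peak: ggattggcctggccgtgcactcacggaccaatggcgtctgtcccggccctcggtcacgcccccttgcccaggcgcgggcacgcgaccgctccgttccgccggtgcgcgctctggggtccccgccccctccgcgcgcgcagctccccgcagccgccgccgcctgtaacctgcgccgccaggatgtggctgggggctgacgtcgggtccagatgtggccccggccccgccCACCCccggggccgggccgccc
KLF7, chr2:207167247-207167496, minus strand, next to a peak of knockdown anti-ETO: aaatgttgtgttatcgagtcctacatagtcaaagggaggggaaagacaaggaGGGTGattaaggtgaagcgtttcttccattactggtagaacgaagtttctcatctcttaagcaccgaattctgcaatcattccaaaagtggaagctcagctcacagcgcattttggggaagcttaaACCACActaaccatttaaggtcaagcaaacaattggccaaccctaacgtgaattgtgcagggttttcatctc

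The KLF12 sequence holds 5 GGGTG matches and no RUNX hexamer, the KLF13 sequence holds 1 CACCC, and the KLF2 sequence holds none of these motifs. Of the single-antibody lists, control anti-ETO alone covered the whole KLF13 sequence. The other lists covered only its last part, from 31326768 (control anti-Flag), 31326746 (knockdown anti-ETO) and 31326784 (knockdown anti-Flag) onwards. The KLF7 sequence holds 1 GGGTG and 1 ACCACA, but the knockdown anti-ETO peak lay outside it. That peak overlapped the 250 bases before another KLF7 start, at 207166856, which are not shown and hold none of these motifs. The promoter table matched 6 of the 8 members, with 12 starts and windows of 300 bases (250 before and 50 after each start). The RUNX hexamer was present in 2 of these 12 windows and in 11.3% of all 22156 windows of protein-coding genes. CACCC or GGGTG was present in 6 of 12 and in 63.4% of all windows, and the ETS motif in 0 of 12 and in 21.2%. Matches of GGGTG and TGTGGT can overlap. Among windows under a control-unique peak 11.3% held the hexamer, and among those under a knockdown-unique peak 8.32% did. Of the 12 member windows, knockdown anti-ETO peaks overlapped 5 (34.7% of all windows), peaks of each control antibody 3 (28.7% for anti-ETO and 28.8% for anti-Flag) and knockdown anti-Flag peaks 2 (21.2%). A match describes the letters and does not show a bound site.

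KLF12 encodes a repressor first known for acting on the AP-2alpha gene. Its body is 619957 bp long on chromosome 13 (73686089 to 74306045, minus strand), and all its peaks lay in 1 region of 2303 bp, which was 0.36% of the window. Control anti-ETO gave 1 peak of 1758 bp (74134104 to 74135861). Control anti-Flag gave a peak of 1585 bp (74133762 to 74135346) and a second of 189 bp (74135658 to 74135846). Knockdown anti-ETO gave peaks of 1166 bp (74134184 to 74135349) and 330 bp (74135735 to 74136064). Knockdown anti-Flag gave 0 peaks. The anti-ETO calls were thus present in both conditions, and the anti-Flag call was present in control alone.

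From these calls the deposited control-unique list holds 1 KLF12 peak of 2100 bp (chr13:74133762-74135861), which ranked 2 by width among 3059, and this width was the reason for choosing the gene. The peak covered 2 of the 4 RefSeq starts of KLF12, at 74134404 and 74133929, and lay 170184 bp inside the outermost start at 74306045. The anti-ETO peaks of both conditions covered the first of these 2 starts and not the second. Control anti-Flag covered both. The knockdown anti-Flag peak nearest to the control-unique peak was 1345532 bp away. The one nearest to the KLF12 body was another peak, which overlapped MZT1 at 959 kb from the gene. Chromosome 13 as a whole had 0.687 times as many anti-Flag peaks in knockdown (171) as in control (249), while the ratio over all chromosomes was 1.12. For anti-ETO the ratios were 1.25 on chromosome 13 and 1.58 over all chromosomes. The part of this chromosome-wide difference in the missing KLF12 call was not tested.

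**Figure D1:**
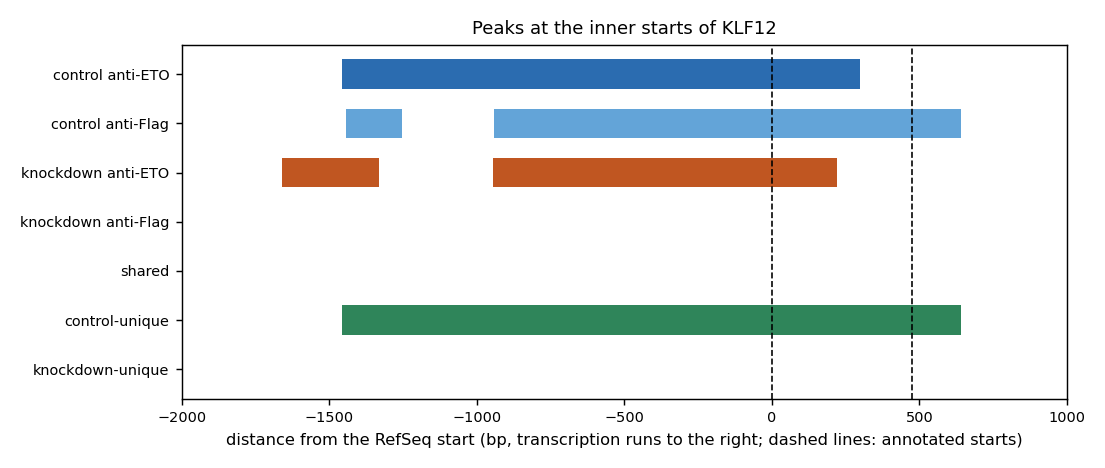
Peaks at the inner starts of KLF12 by list, plotted as distance in bp from the RefSeq start at 74134404, with transcription to the right and dashed lines at the 2 covered starts. Each bar is a peak: control anti-ETO, control anti-Flag and knockdown anti-ETO have bars over the first start, and the row of knockdown anti-Flag is empty.

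The call pattern at KLF12 (knockdown anti-ETO present, knockdown anti-Flag absent) was that of 2284 of the 3059 control-unique peaks, or 74.7%, and 20.2% had no knockdown call. A control-unique peak with neither a shared nor a knockdown-unique peak in the window was found at 1528 protein-coding genes, or 7.65%. Of 204 other protein-coding genes at least as long as KLF12, 61 had any single-antibody peak and 29 had a control-unique peak. Over all protein-coding genes, 41.6% had no single-antibody peak and 16.9% had a control-unique peak. Likeness to KLF12 was measured as the distance between the log2(number + 1) of peaks in 7 lists (4 single-antibody, shared, control-unique and knockdown-unique). At distance 0 were 69 genes, and the 5 nearest to KLF12 in length among them were TBC1D22A, SFMBT2, USP25, FGD6 and LYPLA1-TCEA1. Their control-unique peaks were 209 to 1052 bp wide. KLF12 was chosen for the width of its peak, so nothing is read from these peaks being narrower. Among the 4 genes with an entry in the promoter table, the control-unique peak at USP25 covered a RefSeq start.

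KLF3, another CtBP-binding repressor, had called peaks in all 4 lists at the lower-coordinate end of the gene on chromosome 4 (38664199 to 38701517). The promoter table had no start for KLF3 or KLF10, so their ends are named by coordinate and not as start or end of transcription. The first shared peak (38663255 to 38663724) was 470 bp wide and lay in KLF3-AS1, a non-coding RNA gene that overlaps this lower-coordinate end of KLF3. Its single-antibody peaks were 383 bp wide for control anti-ETO, 349 for control anti-Flag, 470 for knockdown anti-ETO and 388 for knockdown anti-Flag. The second shared peak (38663969 to 38664459) covered the lower-coordinate end itself and had widths of 404, 419, 491 and 412 bp in the same order. Both sites were called by each antibody in each condition, and they were narrow: 89.8% and 88.5% of shared peaks were wider. Regions further inside the gene were called in fewer lists: one of 214 bp by control anti-Flag and knockdown anti-ETO (38665160 to 38665373), one of 339 bp by control anti-Flag alone and one of 363 bp by knockdown anti-ETO alone. No control-unique or knockdown-unique peak lay at KLF3.

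KLF10, a Sin3A-binding repressor induced early by TGF-beta, had the widest peaks of the 8 genes. The gene lies on chromosome 8 (102648784 to 102655725), and its shared peak (102651759 to 102658861) was 7103 bp wide, rank 4 among 8731. It ran from within the gene across the upper-coordinate end into the non-coding LOC101927245. Control anti-ETO covered it with 4 peaks of 4167 bp in sum, of which the longest measured 2283 bp. Control anti-Flag covered it with 4 peaks of 6355 bp in sum, the longest of 3456 bp. Knockdown anti-ETO had 2 peaks there of 6909 bp in sum, and its peak of 5478 bp ranked 13 among all 22594 of that list. Knockdown anti-Flag had 5 peaks of 5323 bp in sum, the longest of 1388 bp. Between conditions the covered length was thus larger in knockdown for anti-ETO and smaller for anti-Flag, at a site called in every list. The whole lists went in the same directions. They covered 8.971 Mb in control and 14.965 Mb in knockdown for anti-ETO, and 13.534 and 13.189 Mb for anti-Flag. The authors' dual-antibody lists held 3 separate intervals here in control (3456, 1097 and 1198 bp) and 1 interval of 7103 bp in knockdown. A peak of 188 bp from knockdown anti-ETO and one of 564 bp from knockdown anti-Flag lay near the lower end of the gene, in 2 regions without a control call.

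KLF13, which regulates CCL5 in T cells and also binds Sin3A, had 2 shared peaks at its start on chromosome 15 (31326835, plus strand). The first (31325392 to 31327415, 2024 bp) ran from 1443 bp before to 580 bp after the start. All 4 lists had a peak over the start, and each of these peaks ended at the same base, 31327415. These start peaks were 1428 bp wide for control anti-ETO, 648 for control anti-Flag, 670 for knockdown anti-ETO and 632 for knockdown anti-Flag. The wide control anti-ETO peak bridged a gap that the other 3 lists left uncalled, so the site was 1 dual-antibody interval in control (2003 bp) and 2 in knockdown (1122 and 670 bp). The second shared peak (31327745 to 31328636, 892 bp) lay 910 bp downstream of the start. Summed over the window, peak width was 2495 bp for control anti-ETO, 2451 for control anti-Flag, 2553 for knockdown anti-ETO and 1941 for knockdown anti-Flag. A peak of 174 bp in the body (control anti-Flag) and one of 180 bp upstream (knockdown anti-ETO) were each called in 1 list.

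**Figure D2:**
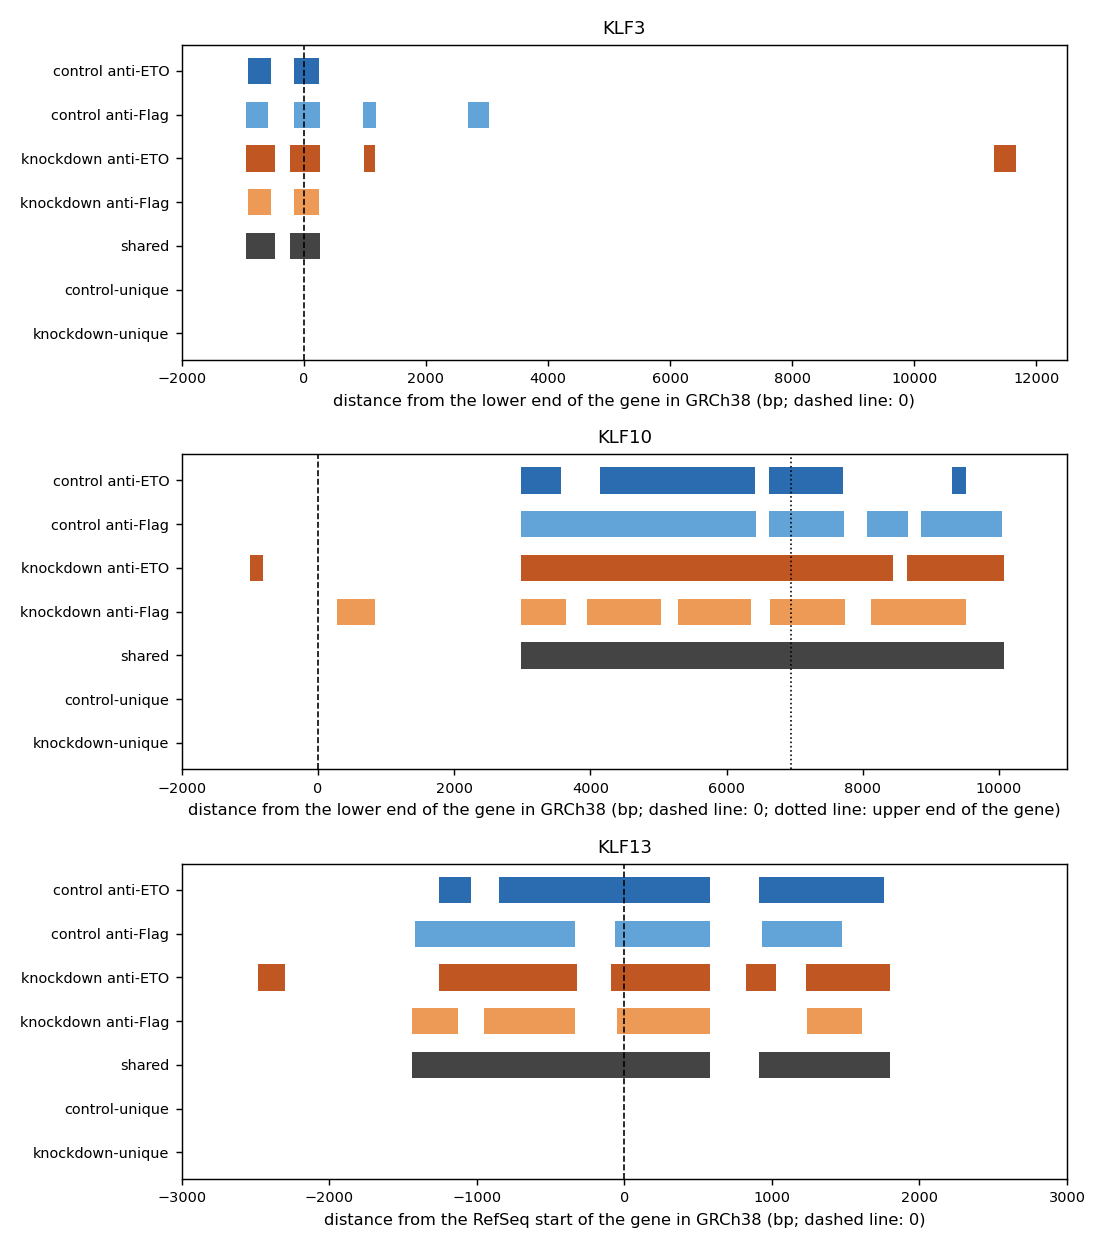
Peaks at KLF3, KLF10 and KLF13 by list, plotted as distance in bp from the lower-coordinate end of the gene (for KLF13 its RefSeq start), with each bar a peak. The shared row is filled in all 3 panels and the unique rows are empty, and the KLF10 panel shows the shared interval of 7103 bp split differently in each single-antibody list.

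KLF2, an activator that keeps lymphocytes quiescent and responds to blood flow in endothelium, was the member with the most regions (7). The gene is short (3860 bp, chromosome 19, 16324826 to 16328685, plus strand). At its start neither control list had a peak. Knockdown anti-ETO had one of 1030 bp (16324331 to 16325360) and knockdown anti-Flag one of 662 bp (16324333 to 16324994), and together they form a knockdown-unique peak that reaches from 495 bp before to 534 bp after the start. In width, 8.97% of knockdown-unique peaks exceeded it. A second knockdown-unique peak (16319346 to 16319874, 529 bp) lay 4952 bp upstream in KLF2-DT, the divergent non-coding gene. The third (16328669 to 16329385, 717 bp) lay across the end of the gene. None of the 3 overlapped a control peak of either antibody, whereas this was so for 1760 of all 4617 knockdown-unique peaks, or 38.1%. The nearest control peak was 2174 bp away from the start peak and 7660 bp from the upstream one.

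KLF2 also had 1 control-unique peak (16328047 to 16328417, 371 bp), in the last part of the gene. It was made by control anti-ETO (371 bp) and control anti-Flag (210 bp), and knockdown anti-ETO had a peak of 289 bp at the same place. No knockdown anti-Flag peak overlapped it, but the knockdown-unique peak at the end of the gene began 251 bp further on. With gaps of up to 500 bp allowed, this control-unique peak had a knockdown anti-Flag call and that knockdown-unique peak had control calls of both antibodies. Control anti-Flag had 2 more peaks, of 380 and 200 bp, that no other list shared. Summed peak width at KLF2 was 371 bp for control anti-ETO, 790 for control anti-Flag, 2693 for knockdown anti-ETO and 1421 for knockdown anti-Flag, so each antibody covered more bases after knockdown. Chromosome 19 as a whole had 1.42 times as many anti-Flag and 1.8 times as many anti-ETO peaks in knockdown as in control, against 1.12 and 1.58 over all chromosomes, and the part of this in the KLF2 calls was not tested. Control-unique and knockdown-unique peaks without a shared peak were found at 234 protein-coding genes, or 1.17%.

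**Figure D3:**
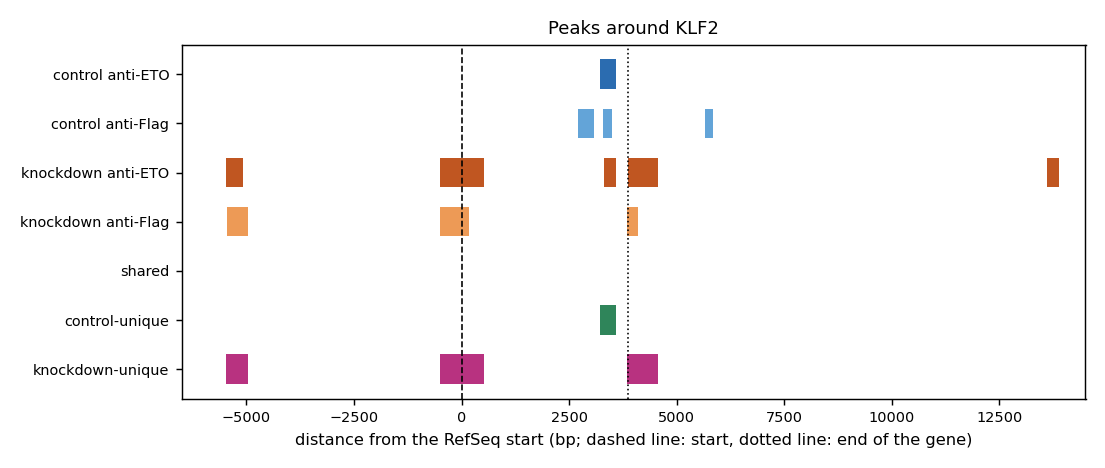
Peaks around KLF2 by list, plotted as distance in bp from its RefSeq start, with each bar a peak, a dashed line at the start and a dotted line at the gene end. Both knockdown lists have bars over the start, where the control rows are empty, and the control-unique and rightmost knockdown-unique bars lie next to each other near the gene end.

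KLF7, an activator best known in developing neurons, had peaks of knockdown anti-ETO alone. They were 358 bp (207166408 to 207166765) and 252 bp (207166976 to 207167227) wide, on chromosome 2, minus strand. The first lay 91 bp downstream of the RefSeq start at 207166856 and overlapped MIR7845, and the second lay 19 bp downstream of the start at 207167246. The other 3 lists had 0 peaks in the window, the nearest being 65.1 kb away for control anti-Flag, 65.2 kb for control anti-ETO and 356 kb for knockdown anti-Flag. Knockdown anti-ETO calls without any other list were found at 705 protein-coding genes, or 3.53%.

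KLF4, a factor of stem cells and of monocyte differentiation, had 0 peaks in each of the 4 lists. The nearest peak of each list lay 201 kb from its body, at RAD23B, where all 4 lists had a peak 964 to 980 bp wide. KLF6, an activator widely induced on cell activation, also had 0 peaks in every list. For KLF6 the nearest peak was a control anti-Flag peak of 172 bp at 55.4 kb, and those of the other lists were 548 to 603 kb away. A list without a peak does not show that binding was absent. The absence of any single-antibody peak was found at 8306 protein-coding genes, or 41.6%.

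Across the 8 genes, control anti-ETO had 11 peaks, control anti-Flag 17, knockdown anti-ETO 21 and knockdown anti-Flag 15. The summed widths were 9578, 12691, 15961 and 10049 bp in the same order. For the whole lists they were 8.971, 13.534, 14.965 and 13.189 Mb. KLF10 alone made up 4167 of 9578 bp for control anti-ETO and 5887 of 10049 bp for knockdown anti-Flag. A control anti-ETO peak was found at 5 of 8 genes (47.6% of protein-coding genes), a control anti-Flag peak at 5 (50.2%), a knockdown anti-ETO peak at 6 (53.8%) and a knockdown anti-Flag peak at 4 (42.2%). A peak in each of the 4 lists was found at 4 genes (KLF2, KLF3, KLF10, KLF13; 37.3%). Control dual-antibody peaks were found at 5 of 8 (43.8% of protein-coding genes) and knockdown dual-antibody peaks at 4 (39.4%). Shared peaks were found at 3 of 8 (KLF3, KLF10, KLF13; 35.1% of protein-coding genes), control-unique peaks at 2 (KLF2, KLF12; 16.9%) and knockdown-unique peaks at 1 (KLF2; 18.4%). With 8 genes chosen on these lists, nothing is read from the distance between these counts and the shares of all genes.

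**Figure D4:**
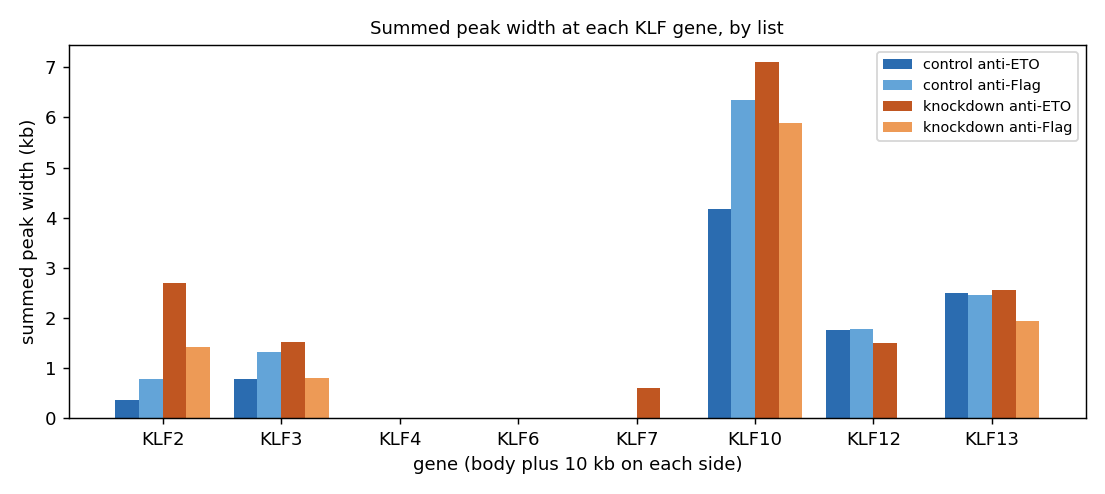
Summed width of the peaks at each of the 8 KLF genes (kb, gene body plus 10 kb on each side), with 1 bar per single-antibody list and no error bar because each group has 1 list. KLF10 stands highest in every list, KLF12 has no knockdown anti-Flag bar, KLF7 has a knockdown anti-ETO bar alone, and KLF4 and KLF6 are at 0.

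Of the 22 regions, 5 were called in all 4 lists (24.8% of all regions), and these were 2 at KLF3, 2 at KLF13 and 1 at KLF10. Knockdown anti-ETO alone called 6 (10.3% of all regions), at KLF2, KLF3, KLF7, KLF10 and KLF13. Control anti-Flag alone called 4 (10.2%), and both knockdown antibodies without a control call gave 3 (5.2%), all at KLF2. The combination of both control antibodies with knockdown anti-ETO occurred at 2 regions, at KLF2 and KLF12 (6.48%). Knockdown anti-Flag alone called 1 region, at KLF10 (22.3%), and control anti-Flag with knockdown anti-ETO called 1, at KLF3 (3.75%). Control anti-Flag with both knockdown antibodies called 0 (7.29%). The genes were chosen on these lists, so nothing is read from the distance between these counts and the shares of all regions. Of the 22 regions, 16 touched a gene body and 12 lay within 1 kb of a gene end. All were taken from gene bodies and the 10 kb beyond them, so nearness to a gene was built in. The share over all regions was not computed, and nothing is read from these 2 counts. A region can belong to a neighbouring gene, and those at KLF2-DT, KLF3-AS1, MIR7845 and LOC101927245 overlapped another annotated gene.

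The remaining family members were taken from a list of 10 KLF and 9 SP genes. Of these 19 genes, 9 had a shared peak (35.1% of protein-coding genes), 3 a control-unique peak (16.9%) and 4 a knockdown-unique peak (18.4%). No single-antibody peak was found at 7 of them (41.6%). KLF16, a Sin3A-binding repressor on chromosome 19, had the most calls, with 9 control anti-ETO, 16 control anti-Flag, 14 knockdown anti-ETO and 20 knockdown anti-Flag peaks, and with 6 shared and 4 knockdown-unique peaks. Some of these lay in the neighbouring REXO1 and ABHD17A. KLF1, the erythroid activator, had 3 shared peaks, and the one across its own body was 2202 bp wide while the others overlapped DNASE2 and GCDH. Shared peaks over the gene body were also found at KLF9, KLF11, SP1, SP2, SP3, SP4 and SP7, of which the one at SP3, a ubiquitous GC-box factor, was the longest at 4911 bp. KLF5, KLF8, KLF14, KLF15, KLF18, SP5 and SP8 had no peak, and KLF17 had 1 peak, of knockdown anti-ETO.

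By branch, and with the members included, shared peaks were found at 5 of 6 Sin3A-binding KLF genes (all but KLF14), 1 of 3 CtBP-binding genes (KLF3), 1 of 6 activators (KLF1), 0 of 3 remaining KLF genes and 5 of 9 SP genes, against 35.1% of all protein-coding genes. The branches come from textbook knowledge and were set after the lists were seen, and nothing is read from the differences between them. Of the 3 control-unique peaks of the other family genes, at KLF9, SP2 and SP9, 3 had a knockdown anti-ETO and no knockdown anti-Flag call, as at KLF12 and KLF2, which was so for 74.7% of all control-unique peaks. Of the 7 knockdown-unique peaks of KLF16, SP2, SP6 and SP7, 6 had a control anti-Flag call and none had a control anti-ETO call, whereas the 3 at KLF2 had neither. Over the genome, 55.1% of knockdown-unique peaks had a control anti-Flag and no control anti-ETO call.

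**Figure D5:**
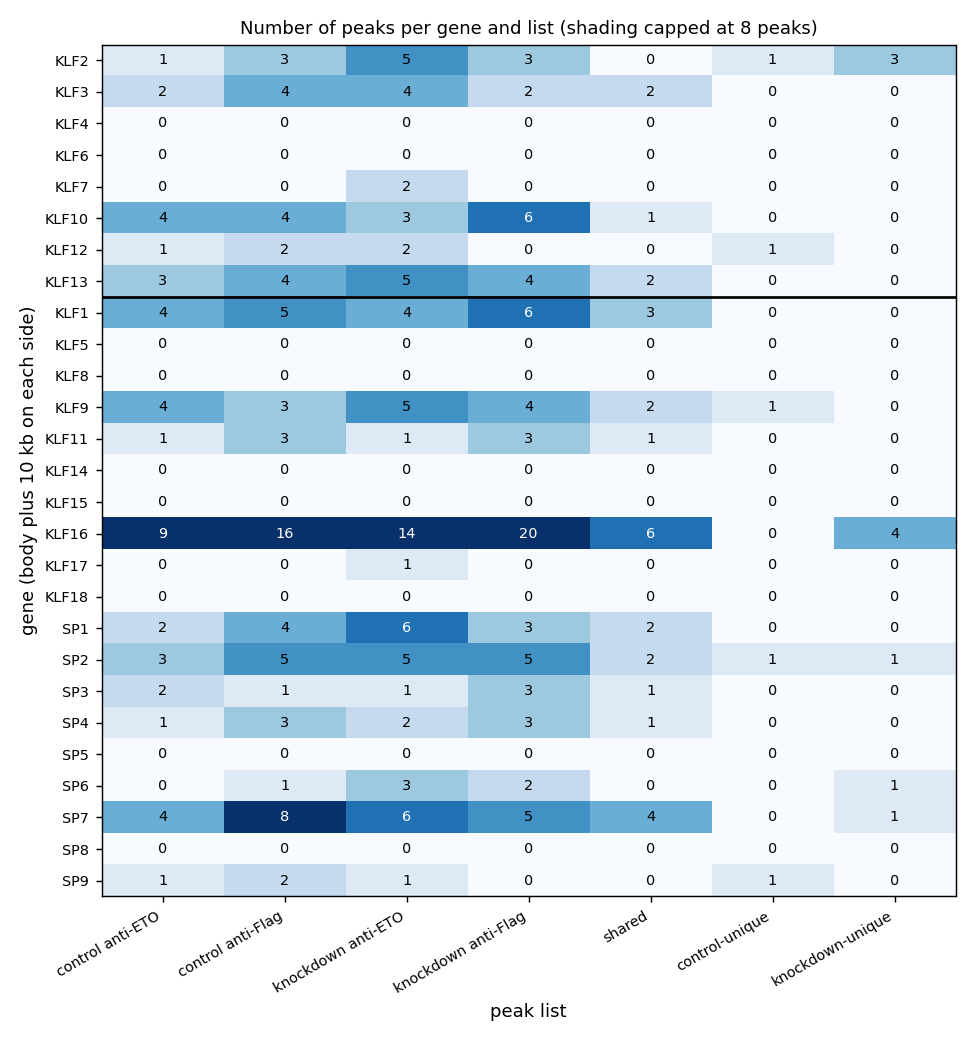
Number of peaks per gene (body and 10 kb beyond each end), for 27 KLF and SP genes (rows, with the 8 members above the line) and 7 peak lists (columns), with darker shading for more peaks up to 8. KLF16 has the highest numbers, and rows of zeros include KLF4, KLF6, KLF5 and KLF8.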

How the data were processed

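CUT&RUN libraries of Kasumi-1 cells (18 libraries, 6 groups of 3) were grouped by their titles. Per the labels' protocols, fragments of 150 to 400 bp were selected and read as 75-bp pairs. The submitters' processing notes name fastp 0.19.5, Bowtie2 2.3.5, MACS2 2.2.5, HOMER 4.8 and the builds hg38 and sacCer3, without roles. The threshold, the use of IgG and the handling of replicates are not given in the sources used here. Any difference in threshold or sequencing depth between lists changes which sites count as unique.

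The 9 files deposited by the authors are interval lists with no score, and no list was divided by library. Gene positions and promoter sequences are from RefSeq (GRCh38.p14), the same assembly as hg38. Positions count from 1. Overlap meant at least 1 bp. Python 3.11.15 with numpy 2.4.6 and pandas 2.3.3 was used, and the code was checked on 2000 simulated intervals, where 6 of 6 checks gave the planted answer. No test was made, because the genes were chosen on these lists and no value per library exists. The members and gene lists were chosen with earlier results of these data known. Named genes were the 8 members, other KLF or SP genes with a shared or unique peak, and the 5 genes most like KLF12. Family members without such a peak are named as well, after their values were seen. Alternatives were other windows, overlap rules and list lengths.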

Additional observations from a re-analysis of the deposited data

How the results depend on the processing

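No paired analysis was possible because each group has 1 list and no value per library, so no library could be left out either. The KLF12 control-unique peak was present under all 6 alternatives tried for the derived lists (gene body alone, 50 kb on each side, peak centre in the window, wider 50% of each list, single-antibody lists cut to 14264 peaks by width, derived lists rebuilt with an overlap of at least 100 bp), and KLF12 had no shared or knockdown-unique peak under any of them. KLF12 was chosen for the width of this peak, which lies inside the gene body. The width and window alternatives could thus hardly remove it, and the rebuilt list returned every control-unique interval. Its presence under them is therefore not read as support. KLF2's control-unique peak was narrow: with the wider 50% of each list, and again with lists of equal length, 1 member in place of 2 had a control-unique peak, and 1 such peak in place of 2 remained. With lists of equal length, 2 members in place of 1 had a knockdown-unique peak, the added one being KLF3, while KLF2 had 2 of its 3. With the wider 50% of each list, 2 shared peaks in place of 5 were found, at 2 members. A window of 50 kb gave KLF2 2 control-unique and 4 knockdown-unique peaks. The 10 kb limit passed close to other peaks at KLF2, where a knockdown anti-ETO peak at 9736 bp was inside and one of the knockdown-unique list at 10.3 kb was outside. Allowing gaps of up to 500 bp joined the 22 regions into 17, of which 4 had calls in all 4 lists. Rebuilding returned 3059 of 3059 control-unique, 4616 of 4617 knockdown-unique, 8715 of 8731 shared, 12234 of 12247 control dual-antibody and 13699 of 13712 knockdown dual-antibody intervals exactly, among 3059, 4625, 8740, 12260 and 13725 rebuilt ones. Of 84 alternative values, 72 stayed within 1.5 times the reported one and 12 did not. The lists hold no reads, so depth cannot be set against any missing call.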
